A study of Mus musculus with 4 samples.

Results

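The genes described here encode 10 transporters of bile acids and other bile constituents, grouped by route: Slc10a1 and Slc10a2 for uptake, Abcb11, Abcb4, Abcc2, Abcg2 and Atp8b1 at the canalicular membrane, and Slc51a, Slc51b and Abcc3 for export back to blood. Of the uptake carriers, Slc10a1 is that of the hepatocyte, while Slc10a2 is known from the ileum and from bile duct cells. The genes were chosen by name, with earlier results of these data known. All 10 were found by symbol among 55487 gene identifiers. Of these 10 genes, 9 passed the filter on low counts and were tested among 14411 genes. Slc51a did not pass it. RNA with polyA tails was sequenced from liver of 4 females of the FVB background, fed chow and aged 11 weeks: 2 wild-type (WT) and 2 PA mice. The labels describe the PA mice as hypomorphic Pcca-/- mice with the A138T change, and give nothing further on how that allele is carried. The gene Pcca codes for the alpha chain of propionyl-CoA carboxylase, and people who lack this enzyme have propionic acidemia. The comparison asks how liver transcripts of PA mice differ from those of WT mice.

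Bile acids are made from cholesterol in the hepatocyte, pumped into the bile canaliculus, taken up again in the ileum and returned to the liver in portal blood. Hepatocytes take them from blood mainly through the sodium-dependent carrier SLC10A1 (NTCP), and secrete them through ABCB11, the bile salt export pump. When bile flow is impaired, transporters of the basolateral membrane provide a second way out of the cell. FXR, the nuclear receptor encoded by Nr1h4, senses bile acids and is known to induce Abcb11, Slc51a and Slc51b.

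Among the transporters, Slc10a2 fell and Slc51b rose in PA livers, and none of the 5 canalicular genes passed the test. Slc10a2 was 15.5-fold lower in PA, a log2 fold change of -3.95 with standard error 0.62 (quasi-likelihood test of edgeR, adjusted p = 0.0474). Slc51b was 5.03-fold higher, a log2 fold change of 2.33 with standard error 0.25 (edgeR adjusted p = 0.0103). So 1 of the 9 tested transporters was called higher and 1 lower, where 0.264% of all tested genes were called higher and 0.548% lower, 0.812% in all. Because earlier results of these data were known when the genes were chosen, this comparison is a description only. Of the 9 fold changes 5 were above 0 and 4 below, beside 50.6% and 49.4% of all tested genes. The median log2 fold change over the 9 was 0.054, beside 0.0049 over all tested genes.

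The regulatory sequence next to the start of these 2 genes is shown because they are the members whose transcripts changed. Of the 10 genes, 8 had an entry in the RefSeq promoter table (GRCm38.p6), with 11 start sites between them. The 250 bases before each start were searched on both strands for exact matches only. These were IR1, the inverted repeat of the nuclear receptor element AGGTCA with 1 base between, a type of element that FXR is known to bind, the single element AGGTCA, which IR1 contains, and TGACNNNGC, the core of the antioxidant response element. Only the stretch that lies before every start annotated in GENCODE M21 is printed, 5′ to 3′ in the direction of the gene, with matches in capitals.
Slc51b, minus strand, chr9:65422956-65423023: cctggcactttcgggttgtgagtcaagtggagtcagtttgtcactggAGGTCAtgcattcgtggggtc
Slc10a2, minus strand, chr8:5105352-5105537: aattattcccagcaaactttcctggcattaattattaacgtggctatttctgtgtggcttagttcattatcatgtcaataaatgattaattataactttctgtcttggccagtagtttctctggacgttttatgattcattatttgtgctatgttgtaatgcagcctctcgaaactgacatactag
The capitals in Slc51b mark AGGTCA, at positions -203 to -198 from the RefSeq start. The 250 bases before Slc10a2 held none of the searched letters. Over the transporters, 7 of 11 start sites had AGGTCA within 250 bases, where 4607 of 32851 promoters in the table did. The exact IR1 stood at 0 of the 11 start sites and at 0.00609% of all promoters, 2 of 32851. It is so rare that its absence here cannot tell whether these promoters hold FXR elements. Repeats that differ from it in any letter were not searched. TGACNNNGC stood before Abcc2 alone among the 8 genes, at -98 to -90, and before 10.2% of all promoters. These matches describe the letters in the window and are no evidence of binding.

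Library totals ran from 25575016 to 30110400 gene counts, so 3 counts correspond to between 0.0978 and 0.118 CPM, the count of a gene relative to the TMM-scaled size of its library. Pcca, the gene named by the genotype, was read at 60.3 and 58.9 CPM in WT and at 34.2 and 47.4 CPM in PA (log2 fold change -0.55 ± 0.22 SE, edgeR adjusted p = 0.398). It lay lower in both PA libraries without passing the threshold, and counts per gene hold transcripts of either allele. The share of counts from mitochondrially encoded genes was 6.90 and 7.38% in the WT libraries, 13.6% in PA replicate 1 and 8.98% in PA replicate 2. In bulk liver, fewer cells of a type and less RNA per cell cannot be told apart. Nothing in the labels says more of the replicates than that they are biological. The p-values weigh the difference between WT and PA against the spread between the 2 mice within each group. That spread was estimated with information from all tested genes.

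**Figure D1:**
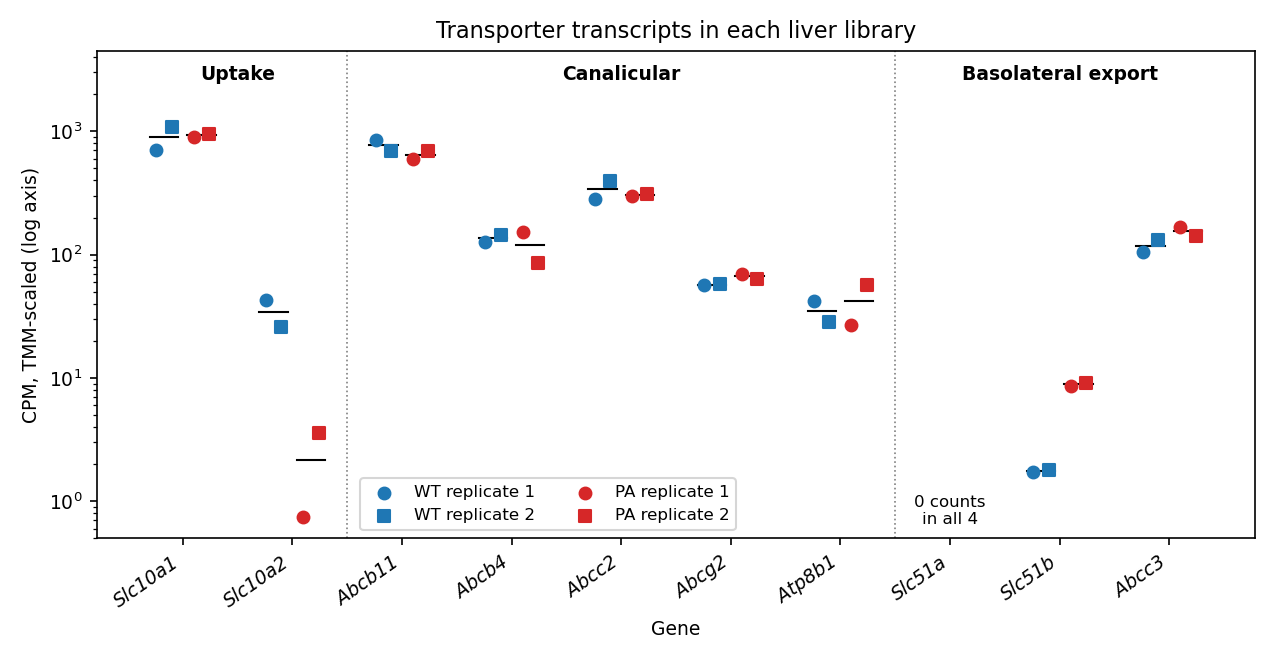
CPM on TMM-scaled library sizes (log axis) of the 10 transporter genes in each of the 4 libraries, ordered by route. Blue marks are WT, red marks are PA, circles are replicate 1, squares are replicate 2 and lines are group means. Slc10a2 lies at 25.8 and 42.5 CPM in WT and at 0.746 and 3.60 CPM in PA, Slc51b lies at about the same level in both libraries of a group, and Slc51a has 0 counts.

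Slc10a1 and Slc10a2 encode the carriers that take up bile acids together with sodium. Slc10a1 was read at 705 and 1086 CPM in WT replicates 1 and 2 and at 904 and 956 CPM in PA replicates 1 and 2. Both PA values lay between the WT values. The fold change was 0.054 ± 0.29 on the log2 scale (SE; edgeR adjusted p = 0.968), and it turned to -0.23 without WT replicate 1.

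Slc10a2 (ENSMUSG00000023073, chromosome 8, 5083219 to 5105351, minus strand, GRCm38) encodes the apical carrier (ASBT) known from the ileum and from bile duct cells. It had 1305 and 658 counts in WT and 19 and 107 counts in PA. In CPM that was 42.5 and 25.8 in WT against 0.746 and 3.60 in PA, so the groups did not overlap. The exact 95% Poisson interval of the lowest library, PA replicate 1, was 11.4 to 29.7 counts, and that of the next, PA replicate 2, was 87.7 to 129 counts, both covering counting error only. Apart from this difference between the genotypes, the PA libraries themselves stood 4.83-fold apart. Leaving out PA replicate 1 gave a log2 fold change of -3.24 and leaving out PA replicate 2 gave -5.51, and both fits called it. It was not called with RSEM expected counts (edgeR adjusted p = 0.0592) or with a filter of 1 CPM in 2 libraries (0.0574), where its log2 fold change was -3.93 and -3.95.

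Since Slc10a2 is known from the ileum and from cholangiocytes, markers of both were read beside it. Of 6 markers of intestinal epithelium, Fabp6, Cdx1, Cdx2 and Lct had 0 counts in every library, and Vil1 was at 0.0393 to 0.101 CPM. Fabp2, a fatty acid binding protein of the gut, was read at 101 and 97.0 CPM in WT and 44.4 and 37.5 CPM in PA, and it fell (log2 fold change -1.28, edgeR adjusted p = 0.0487). It was not called with limma-voom (0.0540), with the filter of 1 CPM in 2 libraries (0.0538), without WT replicate 1 (0.167) or without WT replicate 2 (0.108). The 8 markers of cholangiocytes summed to 40.2 and 54.0 CPM in WT and to 36.8 and 39.8 CPM in PA. Of the 6 that were tested none was called by edgeR. At an edgeR unadjusted p under 0.05, 2 were higher (Krt19 and Sox9) and 1 lower (Spp1). Of all tested genes, 5.88% were higher and 5.93% lower at that threshold. Most of the sum was Spp1 (30.5 and 45.3 CPM in WT, 24.2 and 26.9 CPM in PA). Epcam lay at 0.717 and 1.06 CPM in WT and at 0.824 and 0.976 CPM in PA, and Krt19 at 1.24 and 0.707 CPM in WT and 1.96 and 1.78 CPM in PA. Epcam overlapped between the groups, Krt19 was higher in both PA libraries, and their part in the value of Slc10a2 was not tested.

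None of the canalicular genes passed the test. Abcb11 encodes the bile salt export pump. It was read at 854 and 687 CPM in WT and at 592 and 688 CPM in PA. PA replicate 2 lay level with WT replicate 2, and the log2 fold change was -0.27 ± 0.26 (SE; edgeR adjusted p = 0.756).

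Abcb4 encodes the floppase that moves phosphatidylcholine to the outer leaflet of the canalicular membrane, from which bile salts take it up. The WT libraries gave 127 and 145 CPM, PA replicate 1 gave 152 CPM and PA replicate 2 gave 85.3 CPM. The PA libraries lay above and below both WT libraries and were 1.79-fold apart. Its log2 fold change of -0.20 (edgeR adjusted p = 0.863) turned to 0.16 when PA replicate 2 was left out and was -0.67 when PA replicate 1 was.

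Atp8b1 encodes a flippase that returns aminophospholipids to the inner leaflet. The WT libraries gave 41.8 and 28.3 CPM, PA replicate 1 gave 27.1 CPM and PA replicate 2 gave 57.1 CPM. Here too the PA libraries lay on either side of WT, 2.11-fold apart, but in the reverse order to Abcb4. Its log2 fold change of 0.26 (edgeR adjusted p = 0.839) turned to -0.37 when PA replicate 2 was left out and was 0.71 when PA replicate 1 was. Tmem30a, which encodes the partner subunit of such flippases, was read at 227 and 200 CPM in WT and at 192 and 182 CPM in PA (log2 fold change -0.19, edgeR adjusted p = 0.793). Tmem30a was named after its values were seen.

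Abcc2 and Abcg2 encode canalicular pumps for conjugated and unconjugated organic anions. Abcc2, which exports bilirubin glucuronides and glutathione conjugates, was read at 284 and 394 CPM in WT and at 301 and 312 CPM in PA. Both PA values lay inside the WT range (log2 fold change -0.15, or 0.12 when WT replicate 2 was left out; edgeR adjusted p = 0.881). Abcg2 was read at 56.6 and 57.4 CPM in WT and at 69.6 and 63.5 CPM in PA. Its groups did not overlap, but the log2 fold change was 0.22 ± 0.19 (SE; edgeR adjusted p = 0.719). Of all tested genes, 43.2% had groups that did not overlap in CPM, 21.3% with PA higher and 21.9% with PA lower.

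Over the 5 canalicular genes, 0 were called by edgeR, DESeq2 or limma-voom, and 0 had an edgeR unadjusted p under 0.05, where 11.8% of all tested genes did. Their log2 fold changes ran from -0.27 to 0.26, with standard errors of 0.19 to 0.37. Changes of the size estimated for these 5 genes were called in no tested gene with 2 mice per group.

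Export to blood held the clearest rise. Slc51a and Slc51b encode the 2 subunits of the organic solute transporter (OST alpha and beta), which work as a pair: transport is known to need both. Slc51b (ENSMUSG00000053862, chromosome 9, 65412714 to 65422955, minus strand) had 53 and 46 counts in WT and 221 and 271 counts in PA. In CPM these were 1.73 and 1.81 in WT and 8.68 and 9.12 in PA. The groups lay far apart and the libraries within each group close together, 1.05-fold apart in WT and in PA. It was called in each of the 14 alternative analyses, with log2 fold changes between 2.28 and 2.42 and adjusted p up to 0.0152.

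Slc51a (ENSMUSG00000035699, chromosome 16, 32474504 to 32487879, minus strand) had 0 counts on its own strand in all 4 libraries, which allows up to 3 counts per library, or 0.0978 to 0.118 CPM. The opposite strand within its bounds held 225 and 286 counts in WT and 248 and 403 counts in PA. Pcyt1a, a gene of phosphatidylcholine synthesis on that other strand, overlaps the 3′ end of Slc51a by 567 bases and was read at 65.4 to 99.3 CPM. RSEM listed Slc51a at 6.06 and 8.65 expected counts in WT and at 3.62 and 12.46 in PA. The strand from which RSEM took these reads is not stated in the sources used here, so a ratio between the 2 subunits is not reported. The beta subunit thus rose in livers in which STAR counts did not detect the alpha subunit on its own strand at this depth.

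Abcc3 encodes MRP3, a basolateral pump for glucuronides and bile acids. It was read at 105 and 132 CPM in WT and at 167 and 142 CPM in PA. The groups did not overlap, and the log2 fold change was 0.38 ± 0.23 (SE; edgeR adjusted p = 0.584).

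**Figure D2:**
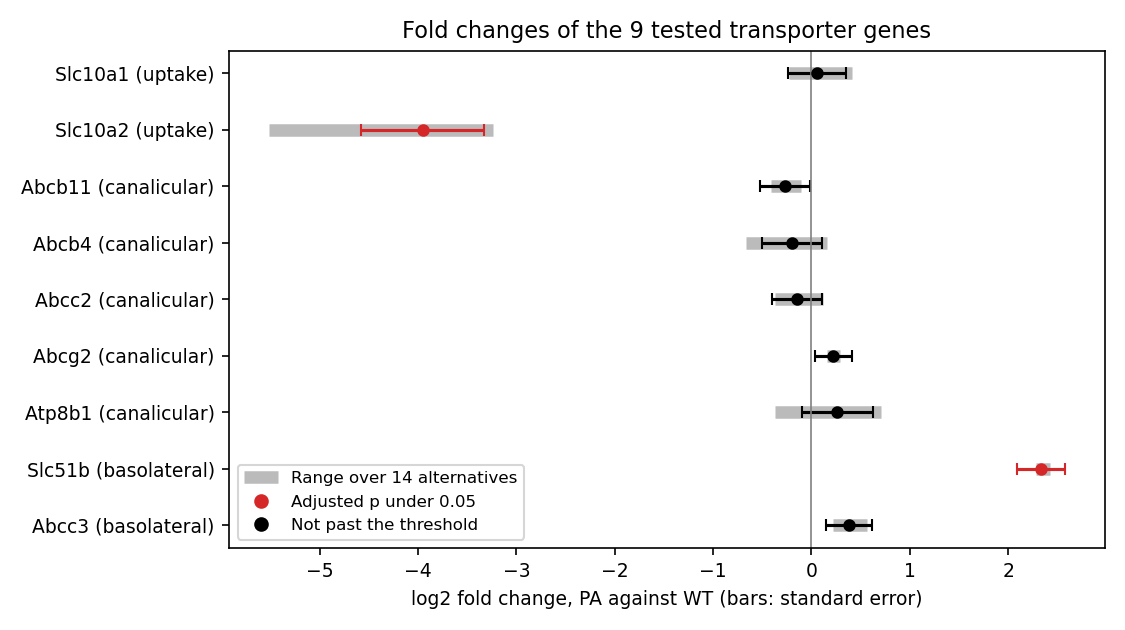
Log2 fold changes of PA against WT (edgeR) for the 9 tested transporter genes, with their standard errors as bars. Grey bands give the lowest and highest value over 14 alternative analyses, which include leaving out each library. The bands of Slc10a1, Abcb4, Abcc2 and Atp8b1 cross 0, while Slc51b stays between 2.28 and 2.42 and Slc10a2 between -5.51 and -3.24.

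Levels of different genes were compared on the deposited TPM scale, which is per transcript length. In WT, Slc10a1 was the most abundant at 651 ± 173 TPM (SD, n = 2), followed by Abcb11 at 189 ± 26.0, Abcc2 at 52.4 ± 5.38, Abcb4 at 38.8 ± 1.75, Abcg2 at 32.3 ± 3.01 and Abcc3 at 26.4 ± 2.54 TPM. Neighbours in this order did not overlap between the WT libraries. Slc10a2 at 9.65 ± 3.62 and Atp8b1 at 6.10 ± 2.17 TPM did overlap, and Slc51b followed at 3.39 ± 0.205 TPM (SD, n = 2). In PA the order began alike, with Slc10a1 at 588 ± 118, Abcb11 at 131 ± 31.5 TPM (SD, n = 2) and Abcc2 at 35.6 and 44.4 TPM. Abcg2, Abcc3 and Abcb4 came next, and Abcc3 overlapped both of the others. Slc51b, at 15.6 ± 3.51 TPM, stood above Atp8b1 at 6.54 ± 4.22 TPM, and Slc10a2 was at 0.570 ± 0.608 TPM (SD, n = 2).

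On the TPM scale the groups of Abcb11, Abcb4 and Abcc2 did not overlap and PA was lower in each. Abcb11 was at 207 and 171 TPM in WT and 109 and 153 TPM in PA. That scale differs from CPM for all genes: the median log2 ratio of PA over WT in TPM was -0.23 over all tested genes, and 36.0% of them did not overlap with PA lower in TPM. Slc51b and Abcc3 did not overlap with PA higher, which 7.67% of tested genes showed. The shares of mitochondrially encoded counts given above move with it, and their part was not tested.

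Ratios within a library do not depend on such scaling. Abcc3 stood at 0.507 and 0.502 of the Abcc2 level in WT, and at 0.822 and 0.740 in PA, in TPM. Both PA ratios were higher, and the difference was larger than the spread in either group. With 2 mice per group the exact permutation test (two-sided) gives p = 0.333, the smallest this design allows. Abcb11 stood at 0.392 and 0.220 of the Slc10a1 level in WT and at 0.216 and 0.229 in PA, so the groups overlapped. Abcb11 stood at 5.52 and 4.26 times the Abcb4 level in WT and at 3.26 and 6.71 times in PA, again with overlap.

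**Figure D3:**
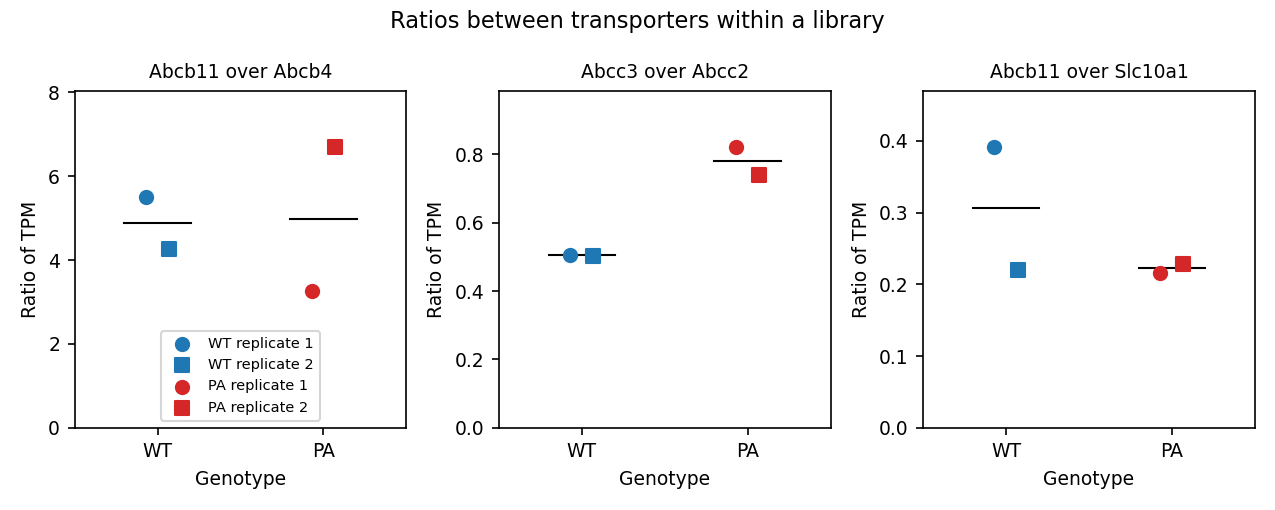
Ratios of TPM between pairs of transporters within each library, with lines at the group means. Marks are as in the plot of CPM by library. Abcc3 over Abcc2 lies at 0.502 to 0.507 in WT and at 0.740 to 0.822 in PA, and the other 2 ratios overlap between WT and PA.

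Summed by route in TPM, the uptake genes made up 59.8 and 70.1% of the total of all 10 transporters in WT and 66.5 and 68.0% in PA. The canalicular genes made up 37.1 and 27.1% in WT and 27.9 and 26.8% in PA. The basolateral exporters made up 3.12 and 2.84% in WT and 5.60 and 5.18% in PA. Only the basolateral share did not overlap between the groups. No test compared the routes. In fold changes, the 2 tested basolateral genes were above 0 but only Slc51b was called, the canalicular genes lay on both sides of 0, and of the uptake genes Slc10a1 lay near 0 and Slc10a2 was called lower.

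Of the stranded counts of the 9 tested transporters, at least 99.5% lay on the expected strand in every library. RSEM expected counts were 73.7 to 90.7% of STAR counts, and the lowest share was that of Slc10a2 in PA replicate 1, which rests on 19 counts. The mean transcript length that RSEM gave, which moves with the mix of isoforms, differed most between libraries for Abcc2, by 15.3%.

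Other genes of bile formation were read from lists. Of 21 tested genes of other bile and canalicular transport, 1 was called higher and 2 lower by edgeR, where 0.264% and 0.548% of all tested genes were (median log2 fold change -0.036). DESeq2 called 5 of them and limma-voom 2. Over all 14411 tested genes, DESeq2 called 186 higher and 256 lower, and limma-voom called 28 and 59. Abcc4, the basolateral pump MRP4, which exports organic anions, rose from 1.53 and 2.24 CPM in WT to 7.89 and 12.9 CPM in PA (log2 fold change 2.47, edgeR adjusted p = 0.0313). Slc22a7, a basolateral carrier of organic anions, fell from 23.3 and 10.8 CPM to 2.20 and 2.02 CPM (log2 fold change -3.02, or -2.37 when WT replicate 1 was left out; adjusted p = 0.0263 in edgeR and 0.0510 in limma-voom). Slco1a1, an uptake carrier of bile acids and other organic anions, fell from 350 and 218 CPM to 0.353 and 0.774 CPM (log2 fold change -8.94, or -9.63 without PA replicate 2 and -6.85 in unstranded counts; edgeR adjusted p = 0.000535). Slco1b2, an uptake carrier of the same family, gave 1949 and 2314 CPM in the WT libraries, and PA replicates 1 and 2 gave 2074 and 1098 CPM. Its log2 fold change was -0.43 (edgeR adjusted p = 0.713). Abcg5 and Abcg8, the canalicular sterol pumps, had log2 fold changes of -0.32 and 0.0031 and were not called. Slco1b2, Abcg5 and Abcg8 were named after their values were seen.

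Of 24 tested genes of the canalicular scaffold and of vesicle traffic to it, 0 were called by edgeR, DESeq2 or limma-voom, and 1 had an edgeR unadjusted p under 0.05 (median -0.078). That gene was Cldn1, a tight junction claudin (log2 fold change 0.78, edgeR adjusted p = 0.408). Stk11, the polarity kinase LKB1, and Cldn3 had log2 fold changes of -0.34 and 0.27. Of 21 tested genes of bile acid sensing and transcriptional control, 0 were called by any of these tools, with 2 higher and 1 lower at an edgeR unadjusted p under 0.05 (median -0.083). These were Rara (0.73), the dioxin receptor Ahr (0.59) and Fgfr4 (-0.54), the receptor through which the gut hormone FGF15 represses bile acid synthesis. Nr1h4 was read at 134 and 155 CPM in WT and at 116 and 142 CPM in PA. Its target Nr0b2 was at 34.7 and 14.3 CPM in WT and 16.4 and 26.6 CPM in PA. Both overlapped between the groups, and both were named after their values were seen.

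Of 17 tested genes of bile acid synthesis and conjugation, Cyp7b1 was called lower and none higher (median -0.14; DESeq2 called 3). Cyp7b1, the oxysterol hydroxylase of the alternative pathway, fell from 28.3 and 25.5 CPM to 7.69 and 8.11 CPM. Cyp39a1 and Acox2 had log2 fold changes of 1.49 and 0.89 (edgeR adjusted p = 0.135 and 0.217). Cyp7a1, the rate-limiting enzyme of the classical pathway, was at 151 and 248 CPM in WT and at 222 and 124 CPM in PA. It was named after its values were seen, and it overlapped between the groups.

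Of 19 genes other than transporters that FXR is known to regulate in liver, 0 were called by edgeR and limma-voom and 2 by DESeq2. At an edgeR unadjusted p under 0.05, 1 was higher and 4 were lower (median -0.041). Of all tested genes, 5.88% were higher and 5.93% lower at that threshold. Pltp, the phospholipid transfer protein, lay at -1.26 on the log2 scale (edgeR adjusted p = 0.0613, but 0.0444 when WT replicate 1 was left out and 0.0349 when PA replicate 2 was), Gpt at 0.98 and Osgin1 at -0.96. Of 15 NRF2 antioxidant genes, a response in which Abcc2 and Abcc3 are also known to take part, Gsta1 and Gsta2 were called higher and 0 lower by edgeR (5 called by DESeq2 and 2 by limma-voom; median 0.45; 7 higher and 0 lower at an edgeR unadjusted p under 0.05, where 5.88% and 5.93% of all tested genes were). Gsta1, Gsta2 and Nqo1 had log2 fold changes of 4.52, 2.86 and 1.18, and Gsta1 and Gsta2 are close paralogs that can share reads. Nqo1 was not called (edgeR adjusted p = 0.0586), but was called without PA replicate 1 (0.0458) or PA replicate 2 (0.0205). Abcc2 at -0.15 and Abcc3 at 0.38 did not pass the test.

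**Figure D4:**
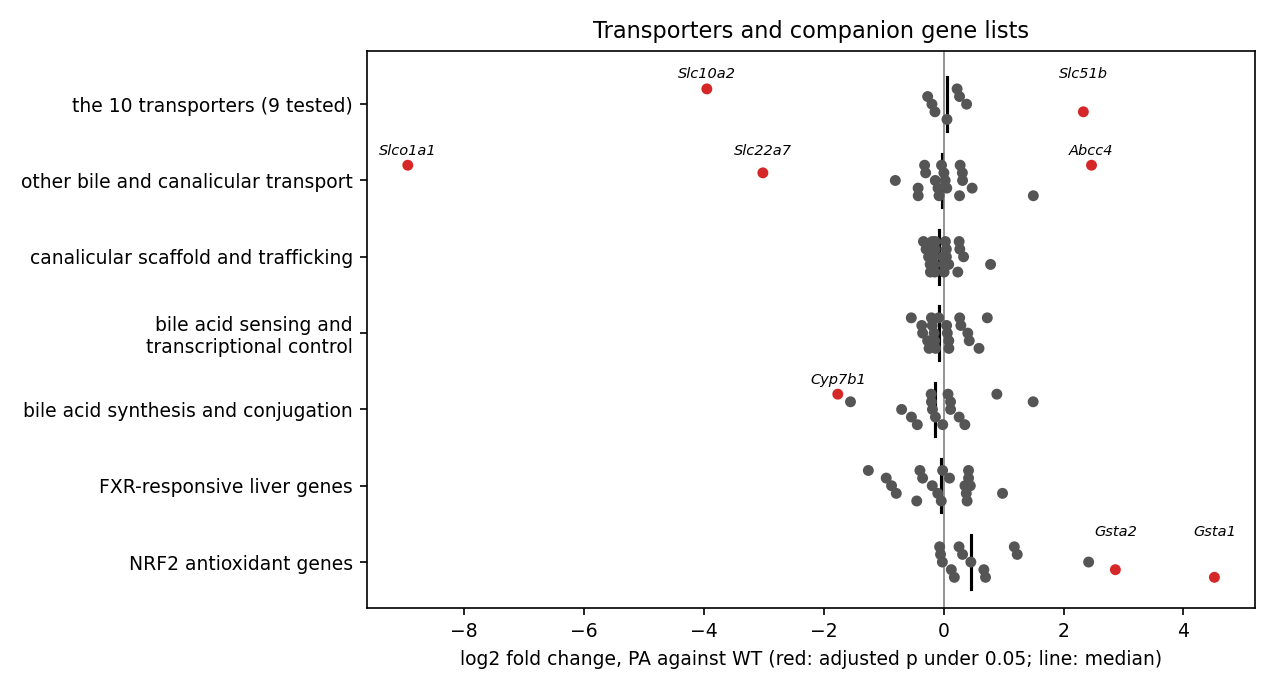
Log2 fold changes of PA against WT for the 9 tested transporters and for the tested genes of 6 companion lists, each mark 1 gene, with a line at the median of a list. Red marks passed an adjusted p of 0.05 and are named. The lists of the canalicular scaffold, of bile acid sensing and of FXR-responsive genes hold no called gene.

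Markers of the cells of the liver were read in the same libraries. The hepatocyte marker Alb had the most counts, at 130577 and 149441 CPM in WT and 120638 and 147200 CPM in PA (replicates 1 and 2). Fgb and Ttr came next in mean CPM over all 4 libraries, an order by counts, not per length, that did not hold within PA. The 8 hepatocyte markers summed to 142713 to 172685 CPM and overlapped between the groups. Kupffer cell markers summed to 508 and 440 CPM in WT and to 218 and 307 CPM in PA. Of these 6 markers, 5 lay lower in PA without overlap, where 21.9% of all tested genes did, and Marco overlapped. None of the 6 was called by edgeR, and DESeq2 called 2. Red cell markers summed to 88.5 and 47.5 CPM in WT and to 11.9 and 16.8 CPM in PA. Of 5 tested red cell markers, Hbb-bs and Hbb-bt were called lower by edgeR, and limma-voom did not call Hbb-bt (adjusted p = 0.0524). Markers of B and T cells summed to 4.92 and 5.89 CPM in WT and to 2.36 and 2.96 CPM in PA, and none of the 5 tested was called by edgeR. Those of endothelial cells summed to 208 and 191 CPM in WT and to 162 and 165 CPM in PA, without overlap. Clec4g alone of the 6 did not overlap, at 115 and 104 CPM in WT and 77.3 and 69.4 CPM in PA. Of all tested genes, 21.9% did not overlap with PA lower. Pecam1, Stab2, Cdh5, Lyve1 and Kdr each overlapped between the groups. None of the 6 endothelial markers was called by edgeR. Those of stellate and mesenchymal cells summed to 353 and 363 CPM in WT and to 388 and 351 CPM in PA, and overlapped. The part of any of these in the values of Slc10a2 and Slc51b was not tested.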

How the data were processed

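The authors deposited 2 tables per library. One holds raw read counts per gene on GRCm38, made with STAR 2.7.6a per the submitters' processing notes. The other holds expected counts, TPM and FPKM per gene, made with RSEM 1.3.3 per the file headers and the same notes. FPKM was not used. The annotation release is not given in the sources used here. Multimapping reads are dropped by STAR and shared out by RSEM. The opposite-strand column was used because it held over 80% of stranded counts in each library. The lines that name no gene, 28.1 to 34.3% of reads, were left out. GENCODE M21 matched 55227 of 55487 identifiers.

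PA was tested against WT over all genes in edgeR 4.0.16 (R 4.3.3) by its quasi-likelihood test, using TMM, filterByExpr, a model of genotype alone, prior count 0.125 and Benjamini-Hochberg adjustment at 0.05. Expected counts were rounded. DESeq2 1.42.0 and limma-voom (limma 3.58.1) were among 14 alternatives. The code was tested on simulated data. Neither pair of replicates agreed within sampling noise (chi-square per degree of freedom 46.3 and 135).

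The members and lists were chosen with earlier results of these data known. Named genes are the transporters, Pcca, and of each list the called genes and the 3 with the smallest p. Of each cell type they are the most abundant markers. Other genes are said to be named after their values were seen. The comparison of protein sequences was not analysed here. Of the genes closest in pattern to the called transporters, some are not reported here.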

Additional observations from a re-analysis of the deposited data

How the results depend on the processing

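Slc51b was called in all 14 alternatives and Slc10a2 in 12. No transporter was called lower (0) with RSEM expected counts or with the filter of 1 CPM in 2 libraries, where the adjusted p of Slc10a2 was 0.0592 and 0.0574, and the range over its alternatives reached down to 2.49e-39 with no filter. No other transporter was called in any alternative. Over all genes, 38 were higher and 79 lower. The counts were 186 and 256 with DESeq2 and 414 and 488 with no filter on low counts. Leaving out 1 library gave 50 to 239 higher and 105 to 261 lower, with the lone mouse of a group assumed to vary like the others. Transporters called higher and lower stayed at 1 and 1 in those 4 fits. Directions turned only in such fits: Slc10a1 ranged from -0.23 to 0.41, Abcb4 from -0.67 to 0.16, Abcc2 from -0.37 to 0.12 and Atp8b1 from -0.37 to 0.71.

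With the replicate number as a block, 126 genes were higher and 192 lower, and Slc10a2 (log2 fold change -4.13) and Slc51b (2.33) stayed called. The labels do not say that a number marks a shared litter or day. Deviations of same-numbered libraries correlated at -0.0997 across genes. With 2 libraries per group, this single value cannot tell whether same-numbered libraries share more than a number. From STAR counts per effective length in place of TPM, Abcc3 over Abcc2 was 0.518 in WT and 0.790 in PA. The ratio of Slc51b to Slc51a had no value there, because Slc51a had 0 counts. With 2 mice per group, missing the threshold does not show that a transporter is equal in WT and PA.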

Other observations

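The genes whose log2 CPM, centred on each gene's mean over the 4 libraries, lay close to the called transporters were taken by Euclidean distance, with predicted gene models left out. For Slc51b these included Adam11 (distance 0.256) and Cyp4a14, a fatty acid omega-hydroxylase (distance 0.366). Both rose, with log2 fold changes of 2.13 and 2.05 (edgeR adjusted p = 0.0171 and 0.0295). Cyp4a14 was not called without WT replicate 1 (0.0605) or without WT replicate 2 (0.120). For Slc10a2 they included Serpina1e (distance 0.813) and Eci3 (distance 0.829). Serpina1e fell, with a log2 fold change of -4.24 (-4.95 without PA replicate 2), and Eci3 lay at -3.60 and was not called (edgeR adjusted p = 0.00664 and 0.147). Eci3 was called when WT replicate 2 (-4.14) or PA replicate 2 (-6.83) was left out, with the replicate block (adjusted p = 0.0337) and with no filter on low counts (6.78e-18). Like Slc10a2, both were lower in PA replicate 1 than in PA replicate 2. All these genes were picked for closeness over the same 4 libraries. Their direction, their order of replicates and their adjusted p-values came with that choice and are no separate evidence. Likeness over 4 libraries is a description of these mice.

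The PA mice differed from each other in several genes of bile formation, in values for which no explanation was tested. Cyp8b1, the sterol 12-alpha-hydroxylase, gave 93.9 and 107 CPM in the WT libraries, and PA replicates 1 and 2 gave 58.0 and 10.3 CPM (log2 fold change -1.56, edgeR adjusted p = 0.426). Abcb4, Abcg8 and Slco1b2 were also lower in PA replicate 2 than in PA replicate 1, and Atp8b1 was higher. Cyp8b1 and Abcg8 were named after their values were seen.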
